A study of Mus musculus with 6 samples.

Results

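Iron handling in osteoblasts was read from 10 genes of iron storage, uptake and release: Fth1, Ftl1, Cp, Tfrc, Slc11a2, Steap3, Pcbp1, Pcbp2, Ncoa4 and Ireb2. Their rows were taken by gene symbol, from a list drawn up with earlier results of these data known, and all 10 were found among the 21686 genes of the count table. RNA came from MC3T3-E1 Subclone 14, a clonal mouse line of bone-forming precursor cells grown in the same medium in every group. The control cells received 100 µL PBS, the dexamethasone cells 10 µM dexamethasone, a synthetic glucocorticoid, and the dexamethasone + EPC-EVs cells the same dose of dexamethasone together with 100 µg of extracellular vesicles from endothelial progenitor cells (EPCs-exo in the labels). Every group was held for 72 hours and has 2 libraries. The study calls the libraries of a group biological replicates, and how they were separated (by culture, passage or day) is not given in the sources used here, so p-values measure the spread between these libraries. The title and design text of the series speak of fibroblasts and the design text of a shorter time and of no PBS group, and the sample labels and the study's methods, which give osteoblasts and 72 hours, were followed.

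Iron enters most cells bound to transferrin, which is taken up by the transferrin receptor. In the endosome the iron is reduced by STEAP3 and carried into the cytosol by the transporter DMT1, the product of Slc11a2. Inside the cell PCBP1 and PCBP2 act as iron chaperones that deliver it to ferritin, a shell of heavy (Fth1) and light (Ftl1) chains, and NCOA4 is the receptor that hands ferritin to autophagy so that the iron is freed again. Ceruloplasmin (Cp) oxidises iron as it leaves the cell through ferroportin. IRP2, the product of Ireb2, binds iron-responsive elements of messenger RNAs when iron is low, where it blocks translation of ferritin and stabilises the transferrin receptor message. Free iron drives lipid peroxidation in ferroptosis, which is why these genes matter for the question the study asked of glucocorticoid-treated bone cells.

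The iron-responsive element is the sequence by which IRP2 binds messages, among them those of Fth1, Ftl1 and Tfrc. The RNA counts here do not measure translation. The annotated untranslated regions of GENCODE vM21 (GRCm38) were searched for a bulged C, 5 bases, the loop CAGTGN with any last base but G, and 5 bases that pair with the first 5, with G-U pairs allowed. Fth1 and Ftl1 each held 1 match in the 5′ untranslated region, and Tfrc held 4 in the 3′ untranslated region. The bulged C and the loop are in capitals, and the lines give the strand of the gene, 5′ to 3′.
Fth1, chr19:9982732-9982761, plus strand: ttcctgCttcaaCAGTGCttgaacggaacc
Ftl1, chr7:45459778-45459807, minus strand: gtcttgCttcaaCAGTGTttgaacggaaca
Tfrc, chr16:32631219-32631248, plus strand: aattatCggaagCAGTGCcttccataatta
Tfrc, chr16:32631598-32631627, plus strand: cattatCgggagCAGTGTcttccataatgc
Tfrc, chr16:32631663-32631692, plus strand: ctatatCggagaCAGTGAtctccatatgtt
Tfrc, chr16:32631710-32631739, plus strand: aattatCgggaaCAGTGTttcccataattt
By this rule 0.102% of 22527 coding genes had a match in the 5′ untranslated region, 0.488% in the 3′ untranslated region and 0.59% in either. The other 7 members had no match by these letters. A rule of 5 unbroken pairs misses an element with a further bulge, so no match does not show that a member lacks one. A match is a description of the sequence and does not show that the element was used in these cells.

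The total counts were 5146760 to 6583735 in the 4 control and dexamethasone libraries, and the dexamethasone + EPC-EVs libraries were deeper, with 12864009 and 13182014. A gene at 0 could still have up to 3 counts, which is 0.228 to 0.583 CPM (counts scaled to a common library total) by library, for counting error only. The dexamethasone + EPC-EVs libraries stood apart from the rest before any member was read. Mitochondrially encoded genes took 0.465% and 0.727% of their counts, against 5.55% to 8.62% in the other 4, and Gm26917 was their top gene, with 5.88% and 6.69%. Weighted by counts, the GC content of the genes measured was 52.0% in both, against 48.3% to 49.7%. Depth, mitochondrial share and GC content changed together with the group, so their part in the differences of these 2 libraries cannot be told apart from the treatment. Of the osteoblast markers, Col1a1, Col1a2, Sparc, Spp1 and Postn were abundant and Runx2 had 904 to 2392 counts, while the markers of mature osteoblasts Alpl, Bglap and Ibsp had between 0 and 83 counts in any library. The 11 osteoblast markers summed to 17122 to 19683 CPM in the control and dexamethasone libraries and to 36656 and 40360 CPM with EPC-EVs. Against dexamethasone 4 of the 9 tested were higher, Col1a1, Col1a2, Sparc and Postn, while Spp1 was lower by edgeR, with a mean of 10695 CPM in dexamethasone and 5189 CPM with EPC-EVs, and Runx2 had a log2 fold change of 0.18 (adjusted p = 0.311). Of the 6 endothelial markers measured, Cdh5, Tek and Prom1 were at 0 in both EPC-EVs libraries, and the summed level of 238 and 288 CPM there, against 365 to 420 CPM elsewhere, was mostly Cd34. The 5 macrophage markers measured summed to 11.8 to 18.6 CPM without EPC-EVs and to 19.2 and 53.2 CPM with them, where Csf1r had 56 and 471 counts and Adgre1 had 0. The part of these markers in the results was not tested.

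Fth1 was by far the most abundant member in all 3 groups. Its FPKM, the level per length of gene, was 4830 ± 267 in control, 6026 ± 180 in dexamethasone and 1974 ± 12.4 with EPC-EVs (SD, n = 2 in each group, as for all SDs here). It ranked 9 in both control libraries and 4 in the other 4 among all genes by FPKM. In control cells Cp followed at 117 FPKM, then Ftl1 at 90.6, Pcbp2 at 73.2, Pcbp1 at 43.9, Slc11a2 at 24.1, Ireb2 at 6.83, Ncoa4 at 4.11, Steap3 at 3.71 and Tfrc at 2.11. Neighbours in that order overlapped between libraries for Ftl1 and Pcbp2, for Ncoa4 and Steap3, and for Steap3 and Tfrc. In dexamethasone cells Ftl1 stood above Cp, at 220 against 112 FPKM. With EPC-EVs Ftl1 reached 474 FPKM, Pcbp1 150 and Pcbp2 140, and Cp dropped to the fifth place at 24.9 FPKM. By group mean Tfrc was the lowest member throughout, between 1.77 and 3.41 FPKM in single libraries. The plot of levels by library shows each member's CPM, which are normalized by TMM over the 6 libraries.

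**Figure D1:**
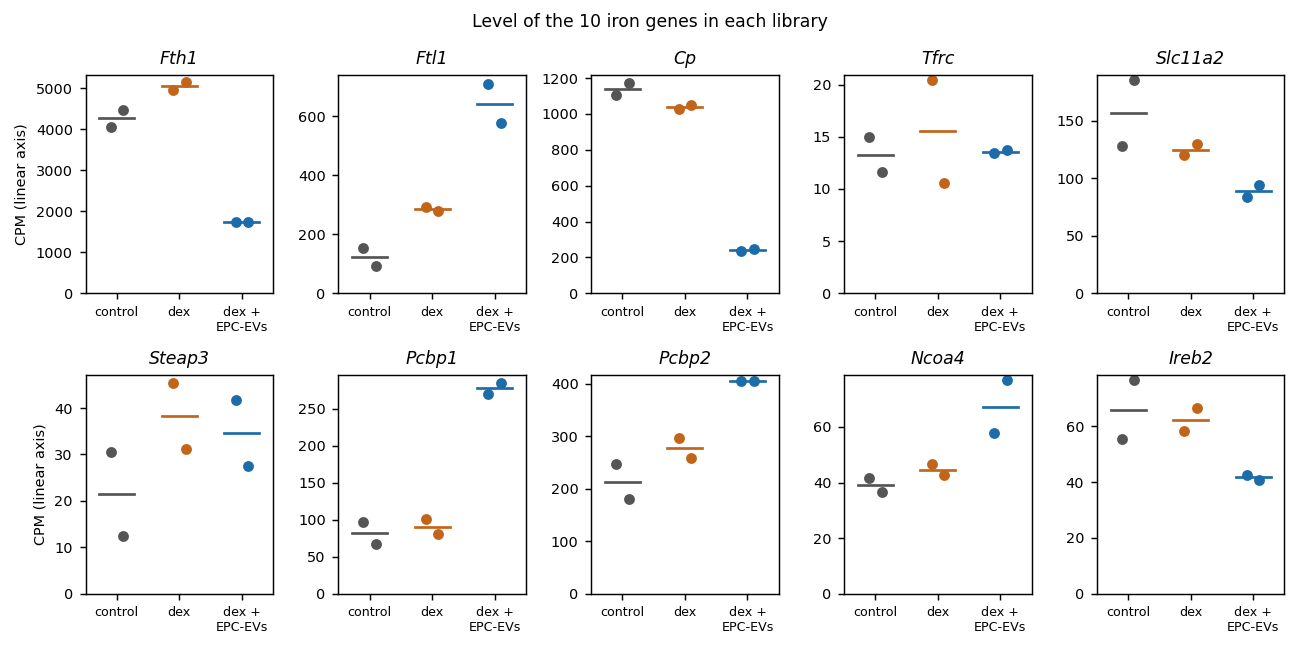
CPM of each of the 10 genes (vertical linear axis from 0, a separate scale for each gene) in the 2 libraries of each group (points) with the group mean (line). Fth1 and Cp sit lowest in both dexamethasone + EPC-EVs libraries, at 1731 and 1734 and at 236 and 246 CPM, while Ftl1 and Pcbp1 sit highest there.

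The first comparison asks what dexamethasone alone did to the iron genes, and no member passed the test. Between dexamethasone and control, 0 of 10 members were called at an adjusted p under 0.05 by edgeR's quasi-likelihood test, where 0.0544% of 12879 genes tested were called and 1 member, Ftl1, had an unadjusted p under 0.05. DESeq2 called 1 member, again Ftl1, among 129 genes in all. Of the members, 6 had libraries that did not overlap between the groups, against 43.9% of all genes tested. The median log2 fold change was 0.20 over the members and 0.01 over all genes tested. Without control replicate 1 the same test called 4 members, Ftl1, Slc11a2, Steap3 and Pcbp2, and 2200 of 13708 genes in all. In such fits the spread comes from the group that keeps both of its libraries, and the single library is taken to share it.

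Adding EPC-EVs to dexamethasone went with changes in 8 of the 10 genes, 4 higher and 4 lower. Ftl1, Pcbp1, Pcbp2 and Ncoa4 rose, and Fth1, Cp, Slc11a2 and Ireb2 fell, while Tfrc and Steap3 did not pass the test. In this comparison 39.8% of 13556 genes tested were called, so calls were common among all genes, and less RNA per cell cannot be told apart from fewer cells of a type in bulk RNA. The libraries of 8 members did not overlap, where 72.4% of all genes tested did not. The median log2 fold change over the members was −0.19, against 0.01 over all genes tested. Fth1, Ftl1, Cp and Pcbp1 were called with any single library left out, while Pcbp2, Ncoa4, Slc11a2 and Ireb2 each lost the call in some such fit.

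Against control, the dexamethasone + EPC-EVs cells differed in 7 members, the same 4 higher and 3 of the same 4 lower. Ireb2 missed the threshold, with an adjusted p of 0.0602 by edgeR. Here 36.4% of 13511 genes tested were called, and 8 members did not overlap between the groups, against 73.0% of all genes tested. With upper quartile normalization the 7 members called split into 3 higher and 4 lower in place of 4 and 3, with Ncoa4 lost and Ireb2 gained. Each pair of the 3 comparisons shares a group, so their fold changes are given side by side and are not independent of each other. The median log2 fold change over the members was 0.34, against 0.02 over all genes tested.

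**Figure D2:**
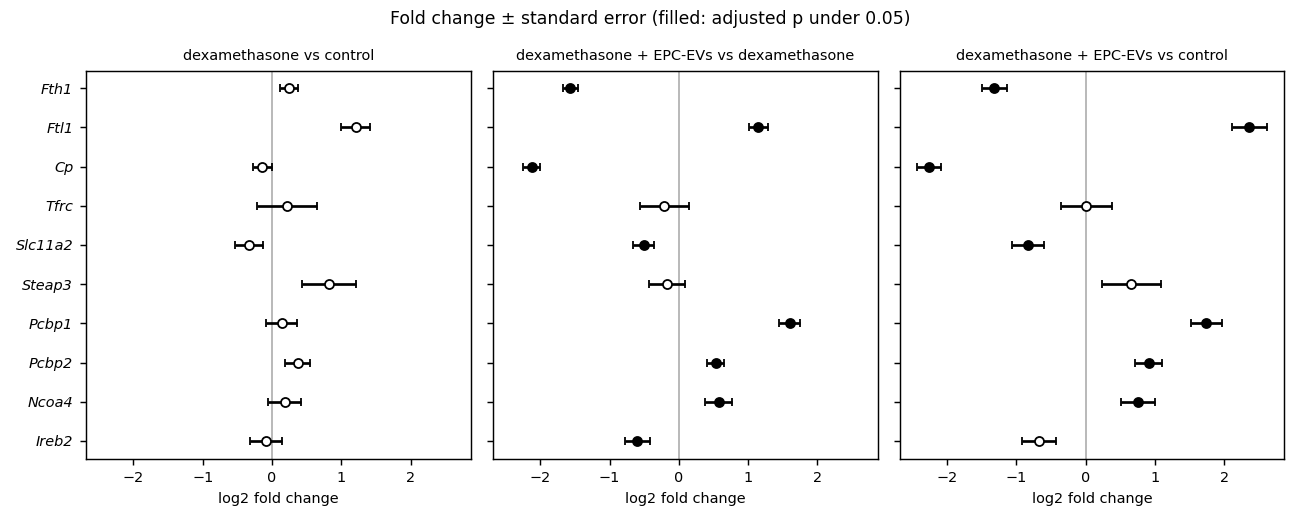
Log2 fold change of each member (horizontal axis) with its standard error (bars) in the 3 comparisons, from edgeR on 2 libraries a group, with filled points for an adjusted p under 0.05. No point is filled for dexamethasone against control, 8 are filled for dexamethasone + EPC-EVs against dexamethasone and 7 against control.

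The ferritin genes moved in opposite directions with EPC-EVs. Fth1, the heavy chain that carries the ferroxidase activity (chromosome 19, 9980598 to 9985098, GRCm38), had 4045 and 4479 CPM in control, 4952 and 5161 CPM in dexamethasone and 1734 and 1731 CPM in dexamethasone + EPC-EVs. The EPC-EVs libraries lay below the other 4. Fth1 fell by 1.56 on the log2 scale against dexamethasone (SE 0.106, adjusted p = 1.7e-06 by edgeR), which is 2.96-fold lower, and by 1.32 against control (SE 0.177, adjusted p = 0.0011). Dexamethasone alone gave a log2 fold change of 0.24 (SE 0.128, adjusted p = 0.515).

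Ftl1, the light chain that helps iron form its core (chromosome 7, 45457944 to 45459884), was lowest in control and highest with EPC-EVs. It had 152 and 94.3 CPM in control, 294 and 278 CPM in dexamethasone and 711 and 576 CPM in dexamethasone + EPC-EVs, with no overlap between any of the groups. The log2 fold change was 1.21 for dexamethasone against control (SE 0.211, edgeR unadjusted p = 0.000149, adjusted p = 0.101), which missed the threshold over all genes. Over the 17 alternatives its adjusted p in that comparison ran from 2.49e-11 to 0.398, and 7 of them called it. With EPC-EVs it rose by 1.15 on the log2 scale against dexamethasone (SE 0.132, adjusted p = 5.21e-05 by edgeR) and by 2.36 against control (SE 0.253, adjusted p = 0.000499). These rises shrank to 0.40 and 1.28 with a trend on GC content and length removed. Both ferritin genes have annotated pseudogenes, and how the counting treated reads they share is not given in the sources used here. Ftl1-ps1 had 0 and 0 counts in control, 15 and 9 in dexamethasone and 106 and 61 with EPC-EVs, and Ftl1-ps2 had 0 or 1. Fth-ps2, a copy of the heavy chain gene, had 29 to 67 counts in the 6 libraries. These counts are small beside the 471 to 9056 counts of Ftl1 and the 22092 to 35033 counts of Fth1. They do not show how many shared reads were left out of the counts of either gene.

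Both changes entered the balance of the ferritin chains. The Fth1 to Ftl1 ratio of FPKM was 41.1 and 73.5 in control, 26.1 and 28.7 in dexamethasone and 3.77 and 4.65 with EPC-EVs, giving group means of 57.3 ± 22.9, 27.4 ± 1.86 and 4.21 ± 0.619. No library of a group overlapped the range of another. The size of the ratio depends on the gene lengths behind the FPKM, 866 bases for Fth1 and 1340 for Ftl1. Their longest coding transcripts have 1494 and 968 bases. The ratio was not tested, and an exact permutation test of 2 libraries against 2 can give no p below 0.333. The sum of both chains, in FPKM, was 4921 ± 235 in control, 6246 ± 171 in dexamethasone and 2448 ± 85.0 with EPC-EVs, so most of the message stayed heavy chain in all groups. Per library total, Fth1 took 0.402% and 0.435% of the counts in control, 0.511% and 0.533% in dexamethasone and 0.172% and 0.170% with EPC-EVs.

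**Figure D3:**
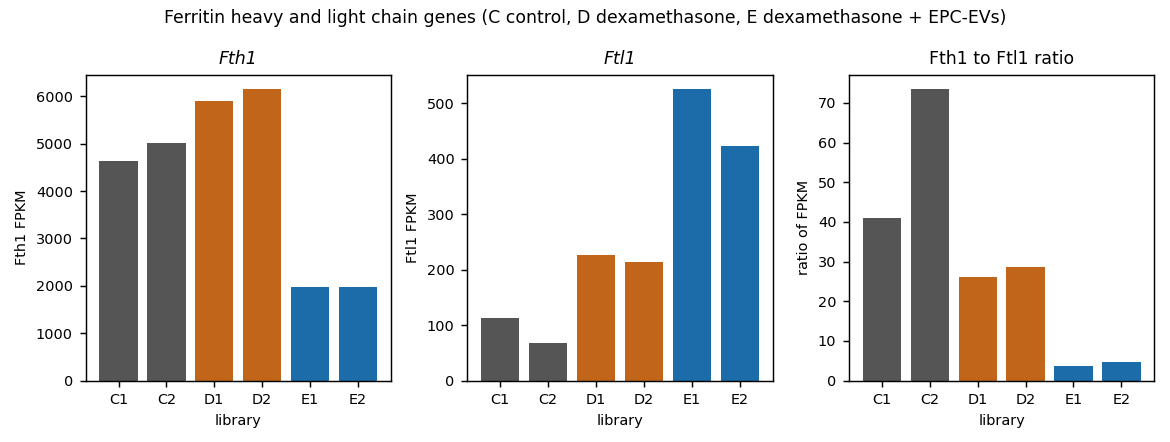
FPKM of Fth1 and of Ftl1 and their ratio (bars from 0) in each of the 6 libraries, C for control, D for dexamethasone and E for dexamethasone + EPC-EVs. Fth1 is lowest and Ftl1 highest in the E libraries, where the ratio is 3.77 and 4.65 against 26.1 to 73.5 in the others.

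Ncoa4, the receptor for the autophagy of ferritin (chromosome 14, 32159865 to 32179855), was modestly higher with EPC-EVs. It had 41.7 and 36.6 CPM in control, 46.5 and 42.7 CPM in dexamethasone and 57.9 and 76.7 CPM in dexamethasone + EPC-EVs. The EPC-EVs libraries lay above the others but also differed the most from each other. Ncoa4 rose by 0.58 on the log2 scale against dexamethasone (SE 0.197, adjusted p = 0.0368 by edgeR) and by 0.76 against control (SE 0.245, adjusted p = 0.0399), and with dexamethasone alone the value was 0.18 (adjusted p = 0.821). The call against dexamethasone was lost under 8 of 17 alternatives, among them DESeq2 (adjusted p = 0.0554), limma on log2(FPKM + 1) (0.120) and the fits without dexamethasone replicate 1 (edgeR adjusted p = 0.111), dexamethasone replicate 2 (0.182) and EPC-EVs replicate 2 (0.236). Against control it was lost under 6 of 17, among them upper quartile normalization (edgeR adjusted p = 0.0513), the replicate block (0.0521), limma on log2(FPKM + 1) (0.0768) and the fits without control replicate 2 (0.072) and EPC-EVs replicate 2 (0.351).

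Both iron chaperones rose with EPC-EVs. Pcbp1 (chromosome 6, 86524492 to 86526321) had 96.8 and 66.5 CPM in control, 100.3 and 80.4 CPM in dexamethasone and 270 and 285 CPM in dexamethasone + EPC-EVs. The control and dexamethasone libraries overlapped, and the EPC-EVs libraries lay above all of them. Its log2 fold change was 1.60 against dexamethasone (SE 0.147, adjusted p = 1.19e-05 by edgeR), which is 3.03-fold higher, 1.75 against control (SE 0.222, adjusted p = 0.000923) and 0.14 for dexamethasone against control (adjusted p = 0.861).

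Pcbp2 (chromosome 15, 102470539 to 102500061) had 247 and 180 CPM in control, 297 and 258 CPM in dexamethasone and 406 and 406 CPM in dexamethasone + EPC-EVs. The groups did not overlap in any comparison. Pcbp2 rose by 0.53 on the log2 scale against dexamethasone (SE 0.125, adjusted p = 0.00552 by edgeR) and by 0.91 against control (SE 0.199, adjusted p = 0.00864), and the value for dexamethasone alone was 0.37 (adjusted p = 0.48). Without dexamethasone replicate 2 the first of these calls was lost (edgeR adjusted p = 0.106). The Pcbp1 to Pcbp2 ratio of FPKM was 0.614 and 0.579 in control, 0.529 and 0.489 in dexamethasone and 1.04 and 1.10 with EPC-EVs, so Pcbp1, an intronless relative of Pcbp2, passed it per length in those libraries. This gain was not seen with a trend on GC content and length removed, where the log2 fold changes of Pcbp1 and Pcbp2 were 0.89 and 0.95 against dexamethasone and 0.67 and 1.46 against control. Pcbp1 overlaps 1600020E01Rik on the other strand, and Pcbp2 overlaps Map3k12 and Gm26518 on the other strand. The study aligned its reads with a strand option (RF), but the strand setting of the counting was not given in the sources used here. Reads of these partners therefore cannot be told apart from theirs, and the same holds for Cp with Hps3, Slc11a2 with Gm5475 and Ftl1 with Gm10252. Pcbp2 also overlaps Gm27406, and Ftl1 overlaps Gm22133, on the same strand.

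Of the uptake genes, the transferrin receptor stayed low and passed no test. Tfrc (chromosome 16, 32608920 to 32632794) had 14.9 and 11.6 CPM in control, 20.5 and 10.6 CPM in dexamethasone and 13.4 and 13.7 CPM in dexamethasone + EPC-EVs. The dexamethasone libraries spanned the range of both other groups. Its log2 fold changes were 0.22 (SE 0.435) for dexamethasone against control, −0.21 (SE 0.353) for EPC-EVs against dexamethasone and 0.01 (SE 0.368) for EPC-EVs against control, with edgeR adjusted p-values of 0.895, 0.67 and 0.985. It had 58 to 178 counts a library, and the dexamethasone libraries, of nearly equal depth, had 139 and 72. Without dexamethasone replicate 1 the first log2 fold change was −0.32 and the second 0.35, so that library decided both directions.

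Slc11a2, the DMT1 transporter (chromosome 15, 100387898 to 100425072), was lower with EPC-EVs. It had 128 and 185 CPM in control, 120 and 130 CPM in dexamethasone and 83.7 and 94.3 CPM in dexamethasone + EPC-EVs. Dexamethasone overlapped control, and the EPC-EVs libraries lay below both. Slc11a2 fell by 0.51 on the log2 scale against dexamethasone (SE 0.149, adjusted p = 0.0181 by edgeR) and by 0.83 against control (SE 0.23, adjusted p = 0.0227), and the value for dexamethasone alone was −0.33 (adjusted p = 0.572). The call against dexamethasone was lost without dexamethasone replicate 1 (edgeR adjusted p = 0.074), dexamethasone replicate 2 (0.145) or EPC-EVs replicate 1 (0.0655). Against control it was lost without control replicate 2 (edgeR adjusted p = 0.0708) or EPC-EVs replicate 1 (0.0988).

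Cp, the ferroxidase that works with iron export (chromosome 3, 19957054 to 20009145), fell in both comparisons with EPC-EVs. It had 1106 and 1173 CPM in control, 1026 and 1050 CPM in dexamethasone and 236 and 246 CPM in dexamethasone + EPC-EVs. Replicates were close together in every group, and the EPC-EVs libraries were far below the other 4. Cp was 4.36-fold lower than in dexamethasone (log2 fold change −2.13, SE 0.117, edgeR adjusted p = 4.42e-07) and 4.79-fold lower than in control (−2.26, SE 0.173, adjusted p = 0.000167). The log2 fold change for dexamethasone against control was −0.14 (SE 0.133, adjusted p = 0.739).

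Ireb2, which encodes the iron sensor IRP2 (chromosome 9, 54863789 to 54912530), had 55.4 and 76.7 CPM in control, 58.3 and 66.6 CPM in dexamethasone and 42.7 and 40.9 CPM in dexamethasone + EPC-EVs. The dexamethasone libraries fell inside the control range, and the EPC-EVs libraries lay below both groups. Ireb2 fell by 0.60 on the log2 scale against dexamethasone (SE 0.183, adjusted p = 0.0222 by edgeR), and the value against control was −0.68 (SE 0.246, adjusted p = 0.0602). The call against dexamethasone was lost with the direction kept under 7 of 17 alternatives. Among them were limma on log2(FPKM + 1) (adjusted p = 0.0535) and the edgeR fits without dexamethasone replicate 1, dexamethasone replicate 2 or EPC-EVs replicate 2. It was also lost under 1 more, with a trend on GC content and length removed, where the direction turned. The value for dexamethasone alone was −0.08 (adjusted p = 0.928). With all 6 libraries in one fit, Ireb2, Ncoa4 and Slc11a2 were not called against dexamethasone (edgeR adjusted p = 0.0669, 0.0637 and 0.0826), and Ireb2 was called against control (adjusted p = 0.0323).

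Several of these sizes changed once GC content and length were corrected for in one step, and the part of each was not tested. The EPC-EVs libraries held more of their counts on GC-rich genes. The members' longest coding transcripts run from 39.0% GC in Ireb2 to 58.1% in Ftl1. When a smooth trend of the counts on GC content and length was removed within each library, the fall of Ireb2 against dexamethasone turned into a log2 fold change of 0.23 (edgeR adjusted p = 0.365). The rise of Ftl1 shrank to 0.40 (adjusted p = 0.0277) and that of Pcbp1 to 0.89 (adjusted p = 0.000353), while those of Pcbp2 and Ncoa4 grew to 0.95 and 1.01. The falls of Fth1 and Cp held at −1.94 and −1.52. Against control the same step gave 1.28 for Ftl1, 0.67 for Pcbp1, −1.45 for Cp, 1.46 for Pcbp2, 1.35 for Ncoa4 and 0.40 for Ireb2. The transcripts of Fth1 and Ftl1 are 53.6% and 58.1% GC.

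**Figure D4:**
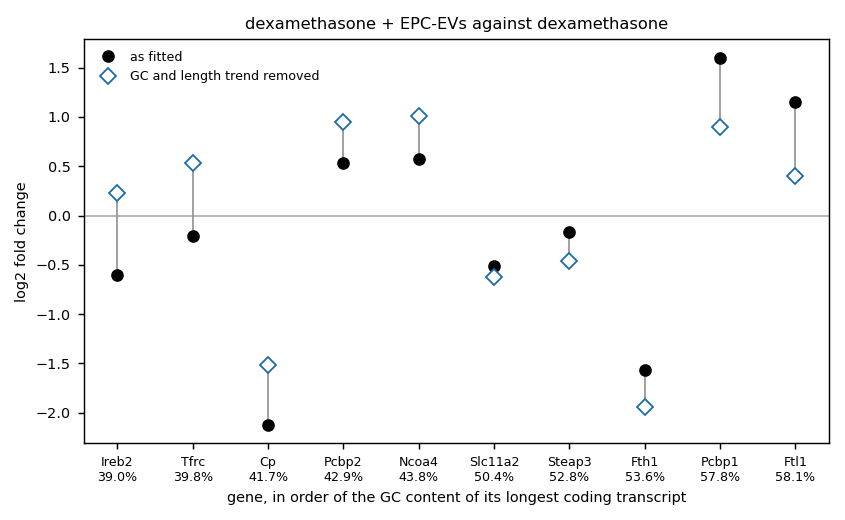
Log2 fold change of dexamethasone + EPC-EVs against dexamethasone (vertical axis) for the 10 genes ordered by the GC content of their longest coding transcript, as fitted (filled circles) and with the GC and length trend removed within each library (open diamonds). Ireb2 and Tfrc, the members of lowest GC content, change sign, and Fth1 and Cp stay below 0, at −1.94 and −1.52.

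Steap3, the ferrireductase of the endosome (chromosome 1, 120190757 to 120272705), was not called at the gene level. It had 30.6 and 12.4 CPM in control, 45.5 and 31.2 CPM in dexamethasone and 41.8 and 27.5 CPM in dexamethasone + EPC-EVs. The EPC-EVs libraries overlapped both other groups. Its log2 fold changes were 0.82 (SE 0.394, edgeR adjusted p = 0.48) for dexamethasone against control, −0.17 (SE 0.26, adjusted p = 0.643) for EPC-EVs against dexamethasone and 0.66 (SE 0.425, adjusted p = 0.255) against control. Without control replicate 1, the higher control library for this gene, dexamethasone against control reached 1.63 (edgeR adjusted p = 0.000468) and EPC-EVs against control 1.50 (adjusted p = 0.0114), in fits with 1 control library that called 2200 and 6231 genes in all.

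Steap3 was also read from its transcripts, of which none passed the test. The table of transcripts covers chromosome 1 and holds 3 annotated transcripts of Steap3 and 12 assembled from the reads. ENSMUST00000112641.7, with 6 exons and a start at base 120271082, had an FPKM of 3.76 and 1.40 in control, 6.45 and 4.58 in dexamethasone and 1.58 and 0.0507 with EPC-EVs. ENSMUST00000112640.7, with 5 exons and a start at base 120265284, was listed at 0 in all 4 control and dexamethasone libraries and had 7.40 and 7.35 FPKM in the EPC-EVs libraries. So the annotated Steap3 message was assigned to the first transcript without EPC-EVs and mostly to the second with them. ENSMUST00000140490.7 was listed at 0 except for 1.31 FPKM in EPC-EVs replicate 1.

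In limma on log2(FPKM + 1), 0 transcripts of Steap3 were called in any of the 3 comparisons. ENSMUST00000112640.7 and the assembled MSTRG.6795.4 passed the filter on low FPKM only through the EPC-EVs libraries, where they are high. The levels of the first above are a description. No test of either is given, though both were among the transcripts tested with EPC-EVs. ENSMUST00000112641.7 had a difference of −1.97 against dexamethasone (SE 0.563, limma adjusted p = 0.0964). The transcript test called few transcripts of any gene: 0.0582% of 5158 for dexamethasone against control, 0.0225% of 4453 for EPC-EVs against dexamethasone and 0.115% of 4347 for EPC-EVs against control. The median difference of all transcripts tested was −0.45 on this scale against dexamethasone and −0.47 against control, so a difference near those values is no change relative to the table. The 2 transcripts also end at different bases, 120224386 and 120226423, and share exons, so the split of reads between them is an estimate of the authors' assembler.

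**Figure D5:**
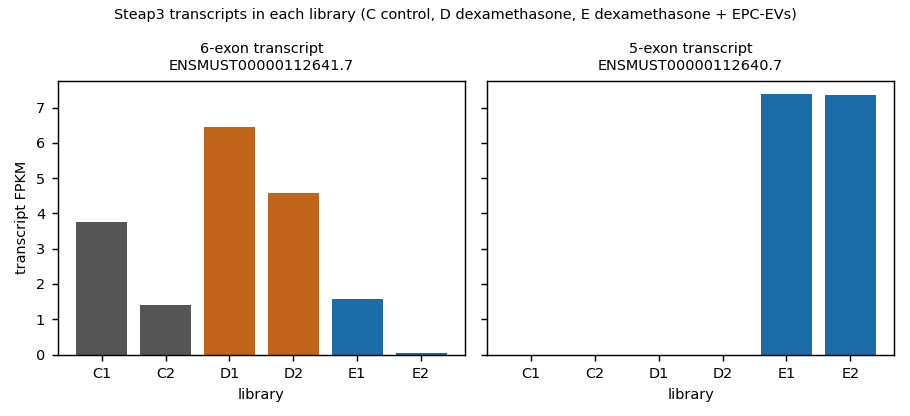
FPKM of the 6-exon and the 5-exon annotated Steap3 transcripts (bars from 0, same axis) in each of the 6 libraries, C for control, D for dexamethasone and E for dexamethasone + EPC-EVs. The 5-exon transcript appears in the E libraries at 7.40 and 7.35 and is listed at 0 in the others, where the 6-exon transcript has 1.40 to 6.45.

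The stretches upstream of both starts are shown because the transcripts differ by their start. They are 250 bases each from RefSeq (GRCm38.p6), on the minus strand, 5′ to 3′, and end at the base before a RefSeq start that lies 2 bases from the start in the table. They are in lower case throughout, since neither of the transcription factor motifs searched was found in them.
Upstream of ENSMUST00000112641.7, chr1:120271081-120271330: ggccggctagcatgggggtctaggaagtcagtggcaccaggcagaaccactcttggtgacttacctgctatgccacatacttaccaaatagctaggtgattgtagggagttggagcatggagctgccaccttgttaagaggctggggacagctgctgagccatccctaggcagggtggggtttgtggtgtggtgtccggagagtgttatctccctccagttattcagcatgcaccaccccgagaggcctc
Upstream of ENSMUST00000112640.7, chr1:120265287-120265536: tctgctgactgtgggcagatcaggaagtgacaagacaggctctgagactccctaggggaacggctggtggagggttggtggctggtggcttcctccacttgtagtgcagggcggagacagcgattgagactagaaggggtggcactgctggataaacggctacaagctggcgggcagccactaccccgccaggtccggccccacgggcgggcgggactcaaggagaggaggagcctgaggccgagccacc
The first stretch is 56.4% GC with 3 CpG pairs and the second 64% GC with 11. Neither holds AGAACA, a glucocorticoid receptor motif, or TGANNNNGC, the core of the antioxidant response element, on either strand. In windows of 300 bases around gene starts, 19% of 32851 held AGAACA and 41.3% the core. CAGTGN, the bare loop of the iron-responsive element, matched 1 time in the window of each of these starts and in 55.8% of all windows. Such a window was found for 9 members, Slc11a2 being the exception. AGAACA occurred in a window of Cp, Ireb2 and Ncoa4, the core in a window of Steap3 and Ncoa4, and neither in those of Fth1 and Ftl1.

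The other genes of iron transport and storage were read from a list of 26, of which 21 were in the table. By edgeR, 0 of 15 tested were called for dexamethasone against control, with 4 at an unadjusted p under 0.05 and 0 by DESeq2. Without control replicate 1, where 2200 of 13708 genes were called, it called 5 of this list, 2 higher and 3 lower, and 1 of each of the other lists given below. Against dexamethasone, EPC-EVs went with 3 higher and 5 lower of 17 tested, and against control with 2 higher and 4 lower of 17, beside the 39.8% and 36.4% of all genes tested that were called in these comparisons. The median log2 fold change of the list was 0.21 against dexamethasone and −0.35 against control. Lcn2, a lipocalin that binds iron-carrying siderophores, had 1213 and 1220 CPM in control, 808 and 1002 CPM in dexamethasone and 4.32 and 8.87 CPM with EPC-EVs, a log2 fold change of −7.11 against dexamethasone (SE 0.307, edgeR adjusted p = 8.47e-07). Steap4, a metalloreductase related to Steap3, had 53.9 and 66.3 CPM in control, 52.1 and 58.8 CPM in dexamethasone and 0.942 and 2.78 CPM with EPC-EVs (−4.90 on the log2 scale, SE 0.385, adjusted p = 4.77e-06). These falls were deeper than that of any member.

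Pcbp4, a relative of the chaperones, rose by 1.36 on the log2 scale against dexamethasone (SE 0.227, edgeR adjusted p = 0.000672) and by 1.80 against control (adjusted p = 0.00234). With the GC and length trend removed neither held, at 0.51 (adjusted p = 0.0949) and 0.44 (adjusted p = 0.249). Heph, the membrane-bound ferroxidase related to Cp, moved opposite to Cp, from 7.22 and 9.13 CPM in dexamethasone to 20.0 and 21.1 CPM with EPC-EVs (1.31 on the log2 scale, SE 0.316, edgeR adjusted p = 0.00638). Its control libraries, at 10.0 and 13.4 CPM, lay between, and against control it was not called (0.80, SE 0.351, edgeR adjusted p = 0.109). Slc22a17, the receptor for Lcn2, rose by 1.79 against control (SE 0.463, edgeR adjusted p = 0.0172), which was lost without either EPC-EVs library (adjusted p = 0.059 and 0.101) or with the GC and length trend removed (0.493). Slc40a1, the iron exporter ferroportin, had 1 and 4 counts in control, 0 and 5 in dexamethasone and 25 and 17 with EPC-EVs, and none of its transcripts exceeded 0.494 FPKM, so the gene was near the limit of detection. Slc39a8 had 0 counts in both control and both EPC-EVs libraries and 4 and 0 in dexamethasone, Bmp6 had 0 in both control libraries and 1 to 6 elsewhere, and Pcbp3 had 0 in both dexamethasone libraries and 0 to 4 elsewhere.

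Genes that control IRP2 and the turnover of ferritin were mostly called in the comparisons with EPC-EVs. Of 8 such genes, 0 were called for dexamethasone against control (1 at an unadjusted p under 0.05 by edgeR, 0 by DESeq2), 5 were higher and 3 lower against dexamethasone, and 4 were higher and 3 lower against control, where 39.8% and 36.4% of all genes tested were called. With the GC and length trend removed fewer of the 8 were called in both comparisons. The share of all genes called in those fits is not reported here. Rb1cc1, a subunit of the autophagy initiation complex, fell by 1.32 on the log2 scale against dexamethasone (SE 0.164, edgeR adjusted p = 9.02e-05) and by 1.72 against control (adjusted p = 0.00108), and by 0.51 and 0.68 with that trend removed. Aco1, which encodes IRP1, the partner of IRP2, was named after its values were seen. It had 27.6 and 30.2 CPM in control, 29.6 and 23.1 CPM in dexamethasone and 65.0 and 57.5 CPM with EPC-EVs. Its log2 fold change was 1.20 against dexamethasone (SE 0.208, adjusted p = 0.000868 by edgeR), opposite in sign to that of Ireb2. With the GC and length trend removed Ireb2 had 0.23 and Aco1 stayed above 0, so the signs were alike there. Of 16 genes of iron-sulfur cluster assembly, 0 were called for dexamethasone against control by edgeR (1 at an unadjusted p under 0.05, 1 by DESeq2), 1 was higher with EPC-EVs against dexamethasone, and 2 were higher and 1 lower against control.

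The genes whose pattern over the 6 libraries lay nearest to Fth1 were Sestd1, Asah2, Snrnp27, Primpol and Ybx1, at distances of 0.0911 to 0.172 on the log2 CPM scale, among 9218 genes whose mean was 10 CPM or more. The distance is Euclidean between centred log2 CPM, and the range of Fth1 over the 6 libraries was 1.58. Among those nearest to Cp were Mphosph8, Pin4, Syn1 and Samd9l, at 0.19 to 0.258, where the range of Cp was 2.31. The 6 points of each profile are 3 groups of 2 libraries.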

How the data were processed

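RNA of 6 libraries of MC3T3-E1 Subclone 14 cells was measured, 2 for each group. The authors aligned the cleaned reads with HISAT2 and counted them per gene with HTSeq 0.6.1, and the counts were deposited unnormalized. Beside them the authors deposited an FPKM per gene, which is the count over gene length and library total. The transcript FPKM were deposited for chromosome 1 and come from StringTie. The submitters' processing notes name GRCm38 and DESeq2 1.26.0.

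The count test was edgeR 4.0.16 under R 4.3.3 (TMM, filterByExpr, robust quasi-likelihood test) on the 4 libraries compared, with Benjamini-Hochberg adjustment over all genes tested and calls under 0.05. Transcripts with an FPKM of at least 1 in 2 or more of the 4 libraries were tested with limma 3.58.1 on log2(FPKM + 1). Both tests were run on simulated data with known changes and a fixed spread. That spread was not matched to these libraries, so the check does not show how the tests perform here. Identifiers of 21646 genes matched GENCODE vM21, the source of coordinates and GC content. The alternatives were other normalizations, filters and tests (DESeq2 1.42.0, limma), one fit of all 6 libraries, a block on the replicate number, each library left out, the threshold of the paper's methods (unadjusted p under 0.05, log2 fold change beyond 1.5), and a loess trend on GC content and length (span 0.4). A fit of all 6 libraries without mitochondrially encoded genes was chosen after seeing the data.

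The genes named are the members, in each comparison the 5 called genes of the wider iron lists with the largest fold change, list genes with 0 counts in a whole group, and the 5 genes nearest to Fth1 and to Cp (1 of them is not reported here), with Aco1 and Slc40a1 added. The members and lists were chosen with earlier results of these data known. Of the 6 erythroid markers listed, none was analysed here. Libraries of one group were further apart than sampling noise (chi-square per degree of freedom 7.17 to 20.1).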

Additional observations from a re-analysis of the deposited data

How the results depend on the processing

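Of 510 log2 fold changes of members over 17 alternatives, 441 kept their direction and their side of the threshold. With the direction kept, 35 lost a call and 16 gained one, and 18 turned direction. Among those 18, Ireb2 against dexamethasone with the GC and length trend removed also lost its call. Fth1, Ftl1, Cp and Pcbp1 were called in both comparisons with EPC-EVs under every alternative that kept the adjusted p. The genes called in all also moved. For dexamethasone against control they were 7 in the main fit, 129 with DESeq2 and 248 without a filter. They were 43 with the replicate block and 18 with the GC and length trend removed. With EPC-EVs the counts below stand without the number called over all genes, so a lower count can reflect fewer calls in all. For dexamethasone against control the count of members called moved from 0 to 1 with DESeq2, without a filter, with the replicate block and with the GC and length trend removed, each time Ftl1, and ran from 0 to 4, the highest without control replicate 1, with single libraries left out. Against dexamethasone it moved from 8 to 7 with DESeq2, to 7 with the GC and length trend removed, to 6 with limma on log2(FPKM + 1), to 5 with all 6 libraries in one fit, with or without mitochondrially encoded genes, to 3 under the threshold of the paper's methods, and to between 4 (without dexamethasone replicate 2) and 7 with single libraries left out. Against control it moved from 7 to 6 with limma and with the replicate block, to 8 with all 6 libraries in one fit, with or without those genes, and with at least 1 CPM in every library, and to 3 under that threshold, and ran from 5 (without control replicate 2) to 9 (without control replicate 1) with single libraries left out. Under some alternatives Steap3 transcripts were called, and their number is not given. Those called include ENSMUST00000112640.7, which passed the filter only through the EPC-EVs libraries, where it is high.

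The directions that turned were of members not called, except Ireb2. For dexamethasone against control, Ireb2 was 0.0049 with limma on FPKM, and Cp 0.047, Pcbp1 −0.19 and Ireb2 0.13 with the GC and length trend removed. With single libraries left out, Tfrc ran from −0.32 to 0.62, Pcbp1 ran from −0.089 to 0.44 and Ireb2 from −0.29 to 0.18. Against dexamethasone, Tfrc was 0.54 and Ireb2 0.23 with the trend removed, and with single libraries left out Tfrc ran from −0.60 to 0.35 and Steap3 from −0.48 to 0.14. Against control, Tfrc was −0.046 with upper quartile normalization and −0.0030 with at least 1 CPM in every library, Ireb2 was 0.40 with the trend removed, and Tfrc ran from −0.14 to 0.24 with single libraries left out. Why these values moved was not tested.

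Same-numbered libraries deviated together with a correlation of at most 0.0713 over 2 pairs, so the numbers were not taken as pairs. With the replicate block 1, 8 and 6 members and 0, 0 and 0 Steap3 transcripts were called in the 3 comparisons, and for dexamethasone against control the genes called moved from 7 to 43. Tfrc and Steap3 had the largest standard errors in every comparison, which ran from 0.26 to 0.435 on the log2 scale.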
